A study of Rattus norvegicus with 19 samples.

Results

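Day 3 after a cut of the dorsal columns was compared with control in rat deep motor cortex, using the 3 arrays labelled day 3 and the 4 control arrays of a series of 19. The arrays were chosen by their labels alone, and all 31042 probe sets that are not array controls were used. Both groups came from adult female Fischer 344 rats. The day 3 rats had a wire knife lesion of the dorsal funiculus in the middle of the third cervical segment, 3 days before the cortex was taken. Control rats are labelled with time 0, and the labels do not say whether they were operated on. The deep part of the limb motor cortex, with layer V, was dissected, so each array measures a mixture of projection neurons, interneurons, glia, vessels and any membrane left on the tissue. The labels name separate samples per group without naming separate animals, so p-values measure the spread between samples. In the main fit this spread was pooled over all 19 arrays of the series, those of other days included. In such bulk tissue, fewer cells of a type and less RNA per cell cannot be told apart.

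The corticospinal neurons of layer V send the axons that are cut, and in the rat most of these axons run in the dorsal columns. An axon cut close to the cell body is known to turn on a growth and stress programme led by the transcription factors Atf3, Jun and Sox11, whereas a cut far away in the cord is known to give a weaker one. Interferons, made in infection and injury, act through Jak kinases and Stat and Irf factors on a set of antiviral genes that many cells hold at a low resting level. Fibroblasts of the meninges and of large vessels make the collagen-binding proteins of the brain's outer lining, and little such matrix lies within the grey matter itself.

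The 7 arrays were alike in most measures, but 1 control array stood apart in a set of probe sets. The median correlation of each array with the other 18 lay between 0.994 and 0.997, and the 3' minus 5' signal of the beta-actin probe sets, a difference that grows as RNA breaks, lay between 0.877 and 1.12 on the log2 scale. In 503 probe sets control replicate 3 lay 0.5 or more below all 6 other arrays, against 0 to 23 probe sets for any other of the 7 arrays. It lay as far above the others in 70, against at most 30. Of the 88 probe sets (0.283%) whose day 3 mean was 0.5 or more above control, 74 were among those 503, and without that array only 23 reached this size. The count of probe sets 0.5 or more below control was 48 (0.155%) with it and 70 without it. The main results above control are therefore given with and without control replicate 3. The layer V marker list had a mean of 8.41 to 8.47 in control and 8.41 to 8.44 at day 3, and the ranges overlap. Of its members Fezf2, a defining gene of these neurons, had the lowest signal, with a mean of 4.26.

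No single transcript passed the test at day 3. limma called 0 of 31042 probe sets at an adjusted p under 0.05 (0% called), and the smallest adjusted p was 1.00. At an unadjusted p under 0.05 it counted 282 probe sets (0.908%), 140 above (0.451%) and 142 below control (0.457%). With no differences at all this threshold would pass a share of about 0.05 of the probe sets, more than was counted. The spread in this fit takes in arrays of other days, and the fit of only the 7 arrays counted 1280. The count of 282 is therefore no measure of how much differed at day 3. Over all probe sets the median size of the difference was 0.05, and the median 95% interval, not adjusted, reached 0.28 to either side. For the typical probe set a smaller difference would not reach an unadjusted p under 0.05, and the adjusted test needs a larger one. The fit of only the 7 arrays called 3 probe sets, those of Atf3 (adjusted p = 0.0472) and Aspn (0.0369) and 1 probe set with no gene name here (0.0369). limma with array weights called 2 others, those of Ccn3 and of a second Sema6a probe set (both 0.0297). Without day14 replicate 2 and day49 replicate 2, arrays of other days that stand apart, the median SE was 0.0792 in place of 0.130. Then 0 were called, 1415 had an unadjusted p under 0.05, and the smallest adjusted p was that of the second Sema6a probe set (0.132). The values below are therefore differences that did not pass. Their 95% intervals are those of limma over all 19 arrays and are not adjusted for the number of probe sets.

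Among the genes of axon injury, Atf3 stood highest. Atf3, which cut neurons are known to switch on, measured 5.88, 5.84, 5.86 and 6.11 in the control arrays and 6.82, 6.76 and 7.11 at day 3. All 3 day 3 arrays lay above all 4 controls, and the means were 5.92 ± 0.12 (SD, n = 4) and 6.90 ± 0.19 (SD, n = 3). The difference was 0.98 on the log2 scale, or 1.97-fold, with a 95% interval of 0.16 to 1.79, and it was 0.96 without control replicate 3.

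Other members of the injury programme differed from control by far less. Jun, the partner of Atf3 in dimers, was at 9.74, 9.71, 9.33 and 9.57 in control and at 9.86, 9.90 and 9.83 at day 3. Its groups did not overlap, but the difference of 0.28 fell to 0.19 without control replicate 3, the lowest control. Its other 2 probe sets differed by 0.38 and 0.39, and there the groups overlapped. Sox11, a transcription factor of growing neurons, was 0.32 above control (95% interval 0.01 to 0.64) with and without that array, with day 3 arrays at 4.51, 4.25 and 4.60 against controls of 4.01 to 4.24. Gal, a neuropeptide of injured neurons, measured 6.81, 7.17 and 7.15 against 6.52 to 6.85 in control, and its groups overlapped. The neuropeptides Vip (0.14, 95% interval -0.95 to 1.23) and Npy (0.19, -0.68 to 1.06) lay close to control with intervals too wide to set a direction. Sprr1a, a small proline-rich protein that rises in regenerating sensory neurons, was at 3.84 to 3.97 against 3.85 to 4.02. Gap43, a growth cone protein, was at 11.48 to 11.52 against 11.50 to 11.58, so its signal at day 3 lay within 0.18 below and 0.14 above control by its 95% interval.

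Sema6a, a transmembrane semaphorin that guides axons, is measured by 5 probe sets. The brightest read 6.11, 5.87, 6.07 and 5.84 in control and 6.41, 6.50 and 6.26 at day 3, a difference of 0.42 (95% interval 0.13 to 0.71), or 0.45 without control replicate 3. The second brightest differed by 0.55 and also separated the groups. The 3 dimmest differed by 0.05, 0.24 and -0.05, so the gene's probe sets did not all behave alike. Of 42 measured regeneration associated genes, 0 were called, 28 lay above control (24 without control replicate 3) and the median difference was 0.04 (0.03 without it), against 47.2% above and a median of -0.01 over all 14217 genes. In 6 of the 42 (Atf3, Sema6a, Sox11, Jun, Klf7 and Flrt3) the day 3 arrays lay above all controls, against 2.49% of all genes; Klf7 and Flrt3 were named after their values were seen. This list holds many genes known from these samples to differ at other days, so its count is no independent evidence of a direction.

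**Figure D1:**
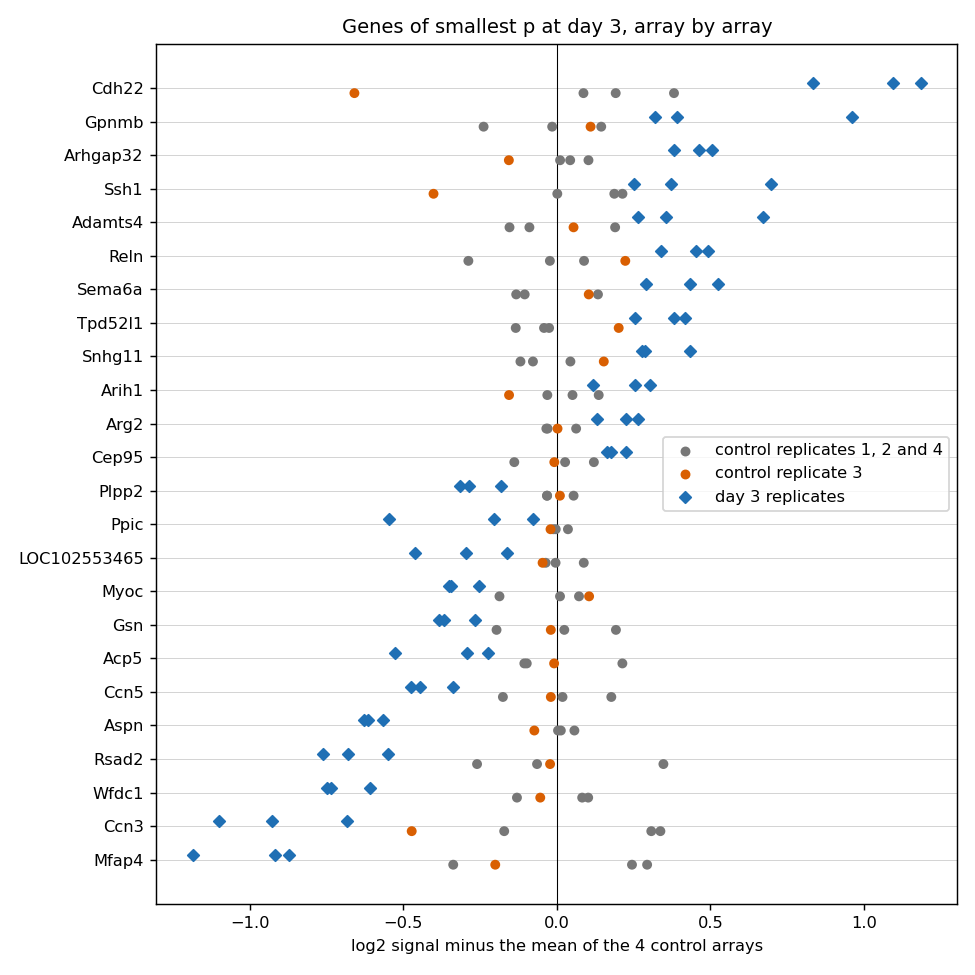
Log2 signal minus the mean of the 4 controls for the 12 genes above and the 12 below control with the smallest p at day 3, 1 point per array. Control replicate 3 lies far to the left for Cdh22 and Ssh1, and the day 3 points of Aspn and Wfdc1 lie in tight groups below all controls.

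Above control with the smallest p were genes of varied function. Arhgap32, a signalling protein of synapses, had the smallest p of these, at 5.81, 5.89 and 5.93 against 5.53, 5.44, 5.27 and 5.47, a difference of 0.45 (95% interval 0.22 to 0.68), or 0.40 without control replicate 3. Adamts4, a protease that cleaves aggrecan and other net proteoglycans, measured 6.26, 5.85 and 5.94 against 5.78, 5.5, 5.64 and 5.43, a difference of 0.43 (0.17 to 0.69), or 0.45 without it. Gpnmb, a glycoprotein of phagocytic microglia and macrophages, measured 7.28, 7.20 and 7.85 against 6.64 to 7.03. Day 3 replicate 3 was the highest of these, and the difference was 0.56 (0.18 to 0.94). Reln, the extracellular protein reelin of layer I cells and interneurons, was at 9.24, 9.28 and 9.13 against 8.50 to 9.01, a difference of 0.43 (0.11 to 0.74), or 0.50 without control replicate 3, and a second probe set differed by 0.36.

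Another 6 genes of smallest p above control differed by 0.19 to 0.44. Snhg11, a long noncoding RNA abundant in neurons, was 0.33 above control (0.38 without control replicate 3), and its 4 probe sets all had that sign with differences of 0.33 to 0.51. Tpd52l1 (0.35, or 0.42 without that array), Arg2, the mitochondrial arginase (0.21 both ways), Ssh1, a phosphatase that activates the actin-severing cofilin (0.44, or 0.31), and Cep95 (0.19, or 0.18) separated the groups too. Arih1, a ubiquitin ligase (0.23, or 0.17), did not separate them, and its 3 other probe sets lay below control.

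Several of the largest differences above control rested on control replicate 3. Cdh22, a cadherin, had a difference of 1.04 (95% interval 0.29 to 1.79): day 3 read 6.29, 6.38 and 6.03 and the controls 5.57, 5.28, 4.53 and 5.38. Without control replicate 3 the difference was 0.82, and the gene's second probe set differed by -0.12. Nek1, a kinase of cilia, read 6.94, 6.71 and 6.78 against 6.59, 6.34, 4.50 and 6.48, and its difference of 0.83 became 0.34 without that array. The RNA-binding protein gene Khsrp went from 0.72 to 0.26, Rasal2, a Ras GTPase activating protein, from 0.68 to 0.26, Fbxw7, a ubiquitin ligase subunit, from 0.58 to 0.25, and Gfod2 from 0.57 to 0.24. In these 5 genes the other 3 controls lay below the day 3 arrays and 1 control lay far below. Atf3 (0.98 and 0.96) and Gpnmb (0.56 and 0.60) did not depend on that array in this way.

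**Figure D2:**
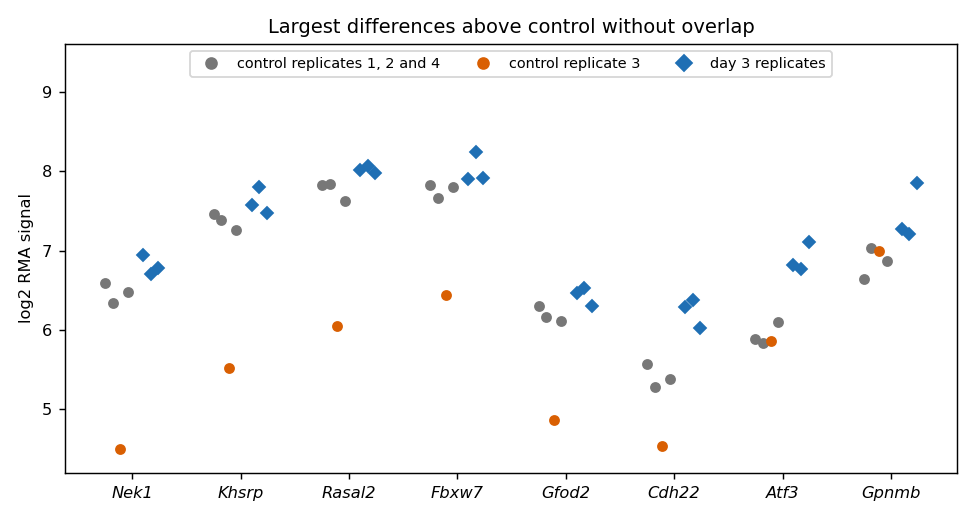
Log2 RMA signal of the 8 genes with the largest differences above control whose groups do not overlap, 1 point per array. Control replicate 3 lies far below the other controls in the first 6 genes, at 4.50 for Nek1 and 5.52 for Khsrp, and among them in Atf3 and Gpnmb.

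The genes of smallest p below control included secreted matrix proteins, a lipid phosphatase and an antiviral gene. Ccn3, a secreted regulator of cell adhesion, had the smallest p of all genes with 1 symbol, at 7.34, 7.32, 6.53 and 6.84 in control and 6.08, 5.91 and 6.32 at day 3. All day 3 arrays lay below all controls, with means of 7.01 ± 0.39 (SD, n = 4) and 6.10 ± 0.21 (SD, n = 3) and a difference of -0.91 (95% interval -1.32 to -0.49). Its relatives Ccn2, a target of Yap and of transforming growth factor beta, and Ccn5 differed by -0.90 (-1.75 to -0.05) and -0.42 (-0.71 to -0.13), and both separated the groups. With the mean of the meningeal fibroblast list as a covariate Ccn2 differed by -0.34, Ccn5 by -0.22 and Ccn3 by -0.64. Mfap4, a protein of elastic fibres, read 6.16, 6.21, 5.72 and 5.58 in control and 5.001, 4.73 and 5.04 at day 3, the largest difference of a named gene below control (-0.99, -1.66 to -0.33). Aspn, asporin, a small leucine-rich proteoglycan, was tight in both groups, at 4.75, 4.70, 4.62 and 4.71 against 4.07, 4.08 and 4.13, and its second probe set differed by -0.64 beside -0.60. Its relative Omd, osteomodulin, differed by -0.81, and Mgp, matrix Gla protein, an inhibitor of calcification, by -0.63 with day 3 arrays at 10.13, 10.14 and 10.17. With the same covariate Mfap4 differed by -0.52, Aspn by -0.44, Omd by -0.32 and Mgp by -0.26. Ccn2, Ccn3, Aspn, Omd and Mgp are themselves among the genes averaged in it.

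Wfdc1, a secreted protease inhibitor, had its low point at day 3. It read 6.07, 6.09, 5.93 and 5.85 in control and 5.25, 5.23 and 5.38 at day 3, a difference of -0.70 (95% interval -1.11 to -0.28). The other lesion days lay closer to control, by 0.07 at day 1, -0.12 at day 7, -0.24 at day 14 and 0.04 at day 49. Day 3 lay below day 1 by 0.76 and below day 7 by 0.58, and neither difference passed (adjusted p = 1.00 for both). Gsn, gelsolin, an actin-severing protein (-0.34), Myoc, myocilin (-0.32), Plpp2, a lipid phosphatase (-0.26), Acp5, a phosphatase of osteoclasts and macrophages (-0.35), Ppic, a cyclophilin (-0.28), and LOC102553465 (-0.31) completed the genes of smallest p, and in each the groups did not overlap.

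As a list, 26 of 33 measured meningeal fibroblast genes lay below control, with a median difference of -0.21 (-0.22 without control replicate 3) and 0 called. In 8 of them all day 3 arrays lay below all controls, against 3.49% of all genes, and in 0 above. The list was assembled with Ccn3, Myoc and Aspn known to be low at day 3, so these genes lend it no support. The list mean was 7.98, 7.99, 7.84 and 7.76 in the control arrays and 7.54, 7.57 and 7.83 at day 3. Day 3 replicates 1 and 2 lay below all controls, and day 3 replicate 3 lay among them. The collagen genes Col1a1 (-0.16), Col1a2 (-0.23) and Col3a1 (-0.30), Dcn (-0.24), Lum (-0.29) and the transporter genes Slc6a13 (-0.13) and Slc13a4 (-0.20), all named after their values were seen, lay below control by less than Ccn5 did, with overlapping groups. The transcription factor gene Foxc1 (0.12, or -0.01 without control replicate 3) and the retinoic acid synthase gene Aldh1a2 (0.02, or -0.19 without day3 replicate 3) had no settled sign. Choroid plexus genes had a median of -0.04 (-0.07 without control replicate 3) with 8 of 12 below control, and their overlapping list means ran from 5.87 to 6.17 in control and from 6.01 to 6.06 at day 3; Kl averaged 3.38, the lowest.

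**Figure D3:**
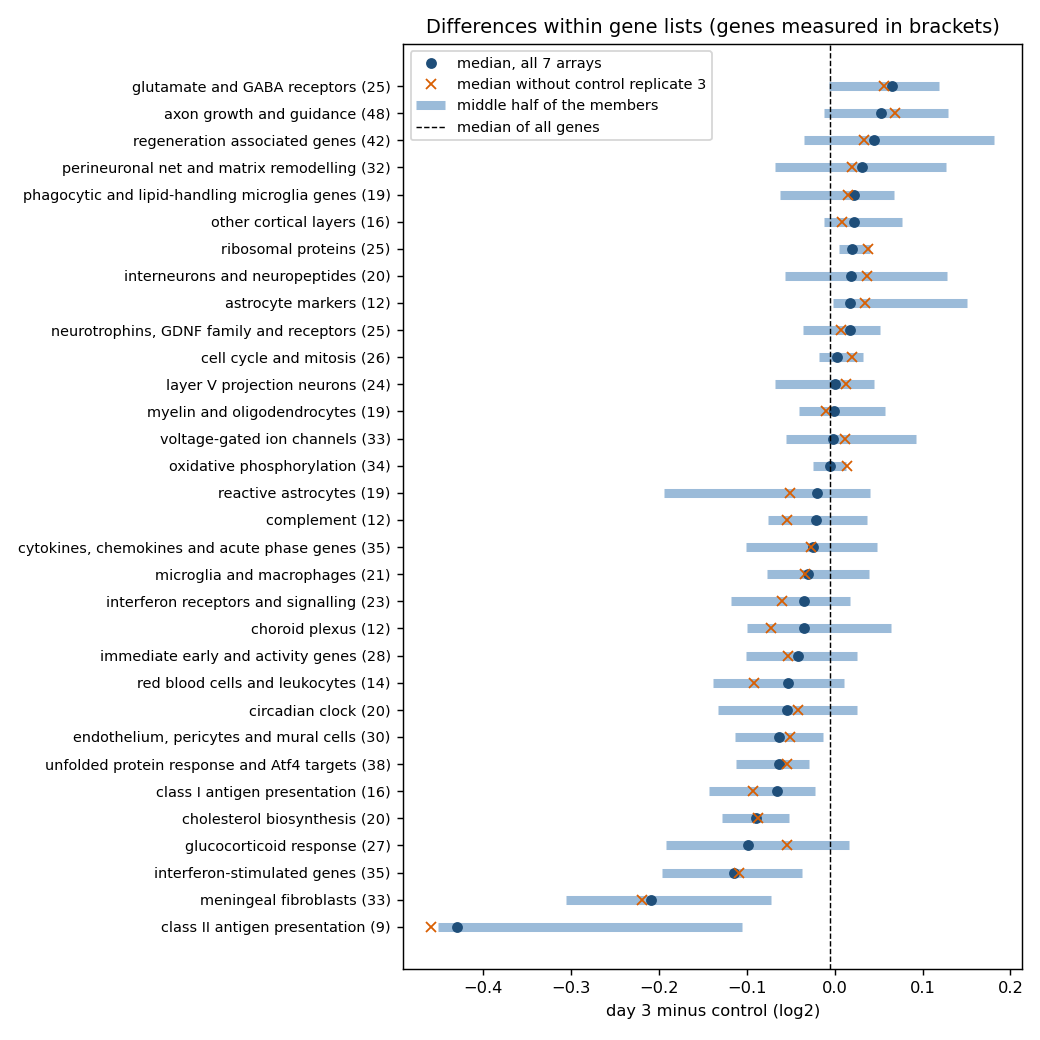
Median difference, day 3 minus control, of each gene list (dot), the interquartile range of its members (bar) and the median without control replicate 3 (cross), on the log2 scale. The class II list (-0.43), the meningeal list (-0.21) and the interferon-stimulated list (-0.12) lie farthest below the median of all genes (-0.01), and no list lies more than 0.07 above 0.

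Interferon-stimulated genes lay below control as a group of small differences. Of 35 measured members 31 were below control (32 without control replicate 3), against 52.8% of all genes, with a median of -0.12 (-0.11 without it) and 0 called. In 5 (Rsad2, Usp18, Oas1a, Oas1b and Irgm) all day 3 arrays lay below all controls, against 3.49% of all genes; Oas1b and Irgm were named after their values were seen. Rsad2, viperin, which blocks viral replication, read 7.23, 7.43, 7.47 and 7.84 in control and 6.73, 6.94 and 6.81 at day 3, a difference of -0.67 (95% interval -1.13 to -0.20). Usp18, which removes Isg15 from proteins and damps the interferon receptor, read 5.74, 6.08, 6.41 and 6.38 against 5.38, 5.64 and 5.59 (-0.62). Oas1a, an oligoadenylate synthetase that activates an RNase, read 4.46 to 5.06 against 4.39, 4.18 and 4.22 (-0.47). Isg15, a ubiquitin-like modifier, differed by -0.70, but its controls ran from 6.40 to 7.83 and overlapped day 3 at 6.14 to 6.67.

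The list mean also lay lower in all day 3 arrays than in all controls. It was 6.37, 6.43, 6.45 and 6.64 in control, where replicate 4 was highest, and 6.25, 6.31 and 6.36 at day 3, just below the lowest control. It ran from 6.27 to 6.47 at day 1 and from 6.24 to 6.34 at day 7, so the low level was not particular to day 3. Against the same controls the list median was -0.12 at day 1, -0.12 at day 7, 0.06 at day 14 and -0.14 at day 49. At day 49 the list means ran from 6.21, in day49 replicate 2, an array that stands apart, to 6.55. Rsad2 itself differed from control by -0.59 at day 1 and -0.61 at day 7, and these comparisons share the control arrays. With the meningeal list mean as a covariate the interferon median was -0.03, and Rsad2 differed by -0.47 and Usp18 by -0.34. That covariate did not shrink every difference. Atf3 went from 0.98 to 1.43, the cholesterol median from -0.09 to -0.13 and the unfolded protein response median from -0.06 to -0.09. The microglia median went from -0.03 to 0.17 and the complement median from -0.02 to 0.15. The cause of these shifts was not tested. The signalling genes upstream differed less: 15 of 23 receptors, kinases and factors were below control with a median of -0.03 (-0.06 without control replicate 3), led by Irf9, the DNA-binding part of the complex that interferons activate, at -0.24 with no overlap.

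The promoters of these genes share a motif that the choice of members did not use. Interferon-activated factors bind a repeat of GAAA, and GAAANNGAAA was searched on both strands, overlapping matches included, in the 250 bases before each annotated start in RefSeq's GRCr8 table. Of the 35 measured list members 26 had a promoter there, and 19 of these (73.1%) held it, against 992 of 27457 genes (3.61%). A list of interferon-stimulated genes would hold it whatever day 3 showed. The 19 genes with it had a median difference of -0.13 with 17 below control, and the 7 without it -0.08 with 6 below. The promoters of the antiviral genes Rsad2 and Oas1a, which separate the groups, and of the interferon factor Irf7 (-0.38, 6.24 to 6.59 against 6.58 to 6.97), named after its value was seen, are shown with the motif in capitals. They lie at chr6:48788121-48788370 on the minus strand, chr12:41330216-41330465 on the plus strand and chr1:205800024-205800273 on the minus strand.
Rsad2: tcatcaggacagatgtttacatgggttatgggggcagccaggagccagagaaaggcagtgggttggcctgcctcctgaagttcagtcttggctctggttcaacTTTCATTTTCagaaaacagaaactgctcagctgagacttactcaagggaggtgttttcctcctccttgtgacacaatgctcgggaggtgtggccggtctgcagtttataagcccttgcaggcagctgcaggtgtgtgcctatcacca
Oas1a: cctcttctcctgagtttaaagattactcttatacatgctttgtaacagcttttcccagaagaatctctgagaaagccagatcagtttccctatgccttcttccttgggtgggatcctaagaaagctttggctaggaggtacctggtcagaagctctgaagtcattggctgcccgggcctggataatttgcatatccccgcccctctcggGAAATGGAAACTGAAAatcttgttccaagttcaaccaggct
Irf7: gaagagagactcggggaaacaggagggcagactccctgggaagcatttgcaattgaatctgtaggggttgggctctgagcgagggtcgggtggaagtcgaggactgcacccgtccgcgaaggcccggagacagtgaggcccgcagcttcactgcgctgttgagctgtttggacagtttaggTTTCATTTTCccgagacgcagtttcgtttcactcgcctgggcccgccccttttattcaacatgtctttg
In Oas1a a pair of overlapping matches starts 41 and 35 bases before the start site, in Irf7 the match starts 69 bases before it, and in Rsad2 147 bases before it. A match describes the letters and not a bound site.

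Class II antigen presentation genes, which mark antigen-presenting cells such as perivascular macrophages, had the lowest median of any list, -0.43, with 9 of 9 below control and 0 called. The array values show that 2 of the 3 day 3 arrays carried this. Cd74, the invariant chain, read 9.32, 9.42, 9.17 and 9.37 in control and 8.64, 8.62 and 9.37 at day 3. RT1-Da, a class II alpha chain, read 9.72, 9.88, 9.66 and 9.70 against 8.92, 8.88 and 9.94. RT1-Bb (8.11, 8.02 and 9.001 at day 3) and RT1-Db1 (6.55, 6.35 and 7.37) did the same, so day 3 replicate 3 lay among the controls in Cd74 and above them in the other 3 genes, while replicates 1 and 2 lay below all controls in each. The list mean was 7.38, 7.31 and 7.98 at day 3 against 7.75 to 7.96, and the median over members was -0.64, -0.70 and 0.17 for the 3 day 3 arrays in turn. Class II list means ran from 7.21 to 7.67 at day 1, below all controls, and from 7.60 to 7.76 at day 7. The class II median was -0.77 at day 1 and -0.19 at day 7 against the same controls, so the low level was not particular to day 3. Microglia and macrophage genes, the cells that could carry these transcripts, had list means of 5.43, 5.38 and 5.70 at day 3 against at most 5.55 in control, with the same array highest; 11 of 21 were below control, the median was -0.03, and the lowest marker, Sall1, averaged 3.19. Among the day 3 arrays the meningeal (7.83) and complement (7.90) lists were highest in that array too. Their part in the class II difference was not tested beyond a fit with the meningeal list mean as a covariate, where the class II median was -0.06. Class I genes, present on most cells, had a median of -0.07 with 14 of 16 below control, with the smallest p for RT1-S3 (-0.39).

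**Figure D4:**
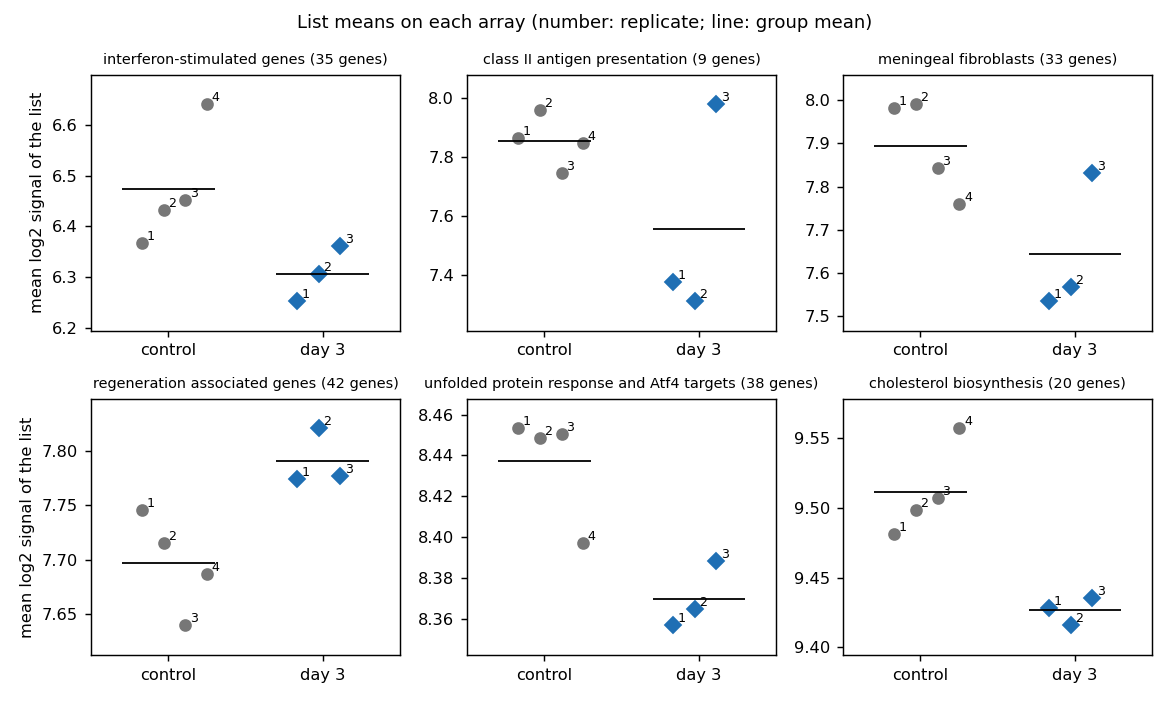
Mean log2 signal of 6 gene lists on each of the 7 arrays, with the replicate number beside each point and a line at the group mean. Day 3 replicate 3 lies with the controls for class II genes (7.98) and meningeal genes (7.83), while the cholesterol list lies below all controls in all 3 day 3 arrays.

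Stress and lipid synthesis genes differed by little, and mostly in the same direction. Of 38 unfolded protein response and Atf4 target genes 31 lay below control (median -0.06, 0 called), and the list mean was 8.36, 8.36 and 8.39 at day 3 against 8.45, 8.45, 8.45 and 8.40. Atf4 itself, the transcription factor of the integrated stress response, was the steadiest: 10.996, 11.05, 11.04 and 11.002 in control and 10.76, 10.76 and 10.77 at day 3, a difference of -0.26 (95% interval -0.45 to -0.06). Nupr1, a stress-induced chromatin protein, differed by -0.55 with day 3 arrays at 6.20, 6.19 and 6.90, so replicate 3 overlapped control, and Ddit3, the proapoptotic partner of C/EBP factors, by -0.15 without overlap. The chaperone genes of the same response, such as Hspa5 (-0.03) and Hsp90b1 (-0.04), both named after their values were seen, lay near 0.

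Of 20 cholesterol synthesis genes 18 lay below control, with a median of -0.09 and 0 called, and in 7 the groups did not overlap, against 3.49% of all genes. The list mean was 9.43, 9.42 and 9.44 at day 3 against 9.48 to 9.56. Lss, which closes the sterol ring, differed by -0.18, Idi1, an isomerase early in the pathway, by -0.14 with overlap, and Insig1, a sensor that holds back sterol synthesis, by -0.11 without overlap. Each 95% interval of these 3 genes included 0. The median of this list at day 1 was -0.11, at day 7 -0.05 and at day 14 -0.10, again against the same controls. At day 14 the list means were 9.52, 9.11 and 9.50. Only day14 replicate 2, an array that stands apart, lay below the control range there.

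Glucocorticoid response genes (19 of 27 below control, median -0.10, or -0.05 without control replicate 3) included Sult1a1, a sulfotransferase, at 8.27, 8.58 and 8.60 against 8.69 to 9.36 (-0.48), Nfkbia, the inhibitor of NF-kappaB (-0.22), and Dusp1, a phosphatase of MAP kinases (-0.21). In all 3 the groups did not overlap. Clock genes (14 of 20 below, median -0.05) included the clock output factors Dbp and Hlf. Dbp read 6.81 and 6.65 in control replicates 1 and 2 and 7.77 and 8.07 in replicates 3 and 4, so the controls alone spanned more than the difference of -0.43; the labels give no time of day. Hlf differed by -0.38, and only 2 of its 4 probe sets had that sign.

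Vessel genes lay slightly below control, with 23 of 30 lower and a median of -0.06. The median was -0.01 with the meningeal list mean as a covariate and -0.03 with the myelin list mean. Emcn, endomucin of capillary and venous endothelium, read 8.33, 8.16 and 8.17 against 8.40 to 8.55 (-0.25), and Ocln, the tight junction protein occludin, 4.35, 4.32 and 4.42 against 4.45 to 4.71 (-0.19). Kcnj8, a channel of pericytes (-0.18), separated the groups, and Vtn, vitronectin (-0.27, or -0.04 with the meningeal covariate), did not. Their list means overlapped, from 6.18 to 6.21 at day 3 and from 6.19 to 6.31 in control. Hemoglobin and leukocyte genes had a median of -0.05 (-0.09 without control replicate 3) with 10 of 14 below control, and list means of 5.24 to 5.30 against 5.03 to 5.59.

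Matrix and guidance genes of the neuropil were mixed. Of 32 perineuronal net and remodelling genes 21 lay above control, with a median of 0.03. Besides Adamts4, the related protease Adamts5 read 8.17, 8.14 and 8.20 against 7.73 to 7.98, a difference of 0.30 (95% interval -0.07 to 0.67). Of 48 axon growth and guidance genes 35 lay above control (median 0.05), while the 3 with the smallest p lay below it. These were Ntn1, the guidance cue netrin 1, at 4.58, 4.63 and 4.86 against 4.90 to 5.53 (-0.61, -1.04 to -0.17), the ephrin receptor gene Epha3 (-0.32) and the Wnt ligand gene Wnt5a (-0.16). With the meningeal list mean as a covariate Ntn1 differed by -0.26, Epha3 by -0.09 and Wnt5a by -0.20. Without control replicate 3 the medians of these lists were 0.02 and 0.07. Glutamate and GABA receptor genes had a median of 0.07 (0.06 without that array), with 18 of 25 above control. In 1 of the 25 the day 3 arrays lay above all controls, a count near the 2.49% of all genes. This was Gabra5, an extrasynaptic GABA receptor subunit (6.62, 6.66 and 6.57 against 6.10 to 6.50).

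The remaining lists lay near the median of all genes. Of the glial lists, 9 of 19 reactive astrocyte genes and 9 of 19 myelin genes lay above control, with medians of -0.02 and -0.00. Gfap, the astrocyte intermediate filament, read 4.93, 4.78 and 5.24 against 4.95 to 5.47, and its 95% interval, not adjusted, ended 0.13 above control. These readings lie below the median signals of the arrays (5.57 to 5.60), so the interval describes a dim probe set. Cldn11, the tight junction protein of myelin and meninges, stood apart in the myelin list at 7.85, 7.89 and 8.23 against 8.48 to 8.68 (-0.59). With the meningeal list mean as a covariate it differed by -0.06, and with the myelin list mean by -0.52. Neuronal identity genes were level. Of 24 layer V genes 12 lay above and 12 below control (median -0.00), with Bcl11b, which specifies corticospinal neurons, at 5.88 ± 0.23 (SD, n = 3) against 5.70 ± 0.18 (SD, n = 4) and Crym, mu-crystallin, at 7.91 ± 0.07 against 8.06 ± 0.11. Of 16 markers of other layers 11 lay above control (median 0.02). Calb1, calbindin, was lower by 0.49 without overlap. In 2 of the 16 the day 3 arrays lay below all controls, against 3.49% of all genes, and in 2 above them, against 2.49%. Interneuron genes (median 0.02), immediate early genes (-0.04, with Fos at 0.09), cell cycle genes (0.00), neurotrophin genes (0.02), voltage-gated channels (-0.00), ribosomal (0.02) and respiratory chain genes (-0.01) had 0 calls, as had the complement (-0.02), cytokine (-0.03), phagocytic (0.02) and astrocyte marker (0.02) lists.

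Day 3 was then compared with the lesion days before and after it, in contrasts that do not use the controls. Against day 1, limma called 8 probe sets of 7 genes, all lower at day 3 (0.0258%), and 0 higher (0%), with 574 at an unadjusted p under 0.05 (1.85%). Igfbp6, which binds insulin-like growth factors, fell by 1.17 from day 1 to day 3 (SE 0.13, adjusted p = 0.00358), and its day 3 arrays (9.72, 9.66 and 9.76) lay below all controls (9.90 to 10.17) as well. The other 6 ended within the control range or near it: Agt at 4.88, 4.97 and 4.73 against 4.81 to 4.92, Ifitm3 at 9.19, 9.15 and 9.52 against 9.38 to 9.50, and Pla1a, Spon2, Crabp2 and Lgi4 with differences from control of -0.11, -0.04, 0.04 and -0.05. Mgp (-0.92, adjusted p = 0.833), Gsn (-0.49, 0.41) and Gfap (-0.83, 0.207) were lower at day 3 than at day 1 without passing. The count was 0 without day1 replicate 2, 1 without day3 replicate 1, 2 without day3 replicate 2, and 4 without day3 replicate 3 or without day1 replicate 1. With day14 replicate 2 and day49 replicate 2 left out, limma called 63.

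Against day 7, limma called 0 probe sets (0%), with 174 at an unadjusted p under 0.05 (0.561%). Of the neuropeptides that stand high at later days, Vip was 1.62 lower at day 3 than at day 7, Npy 1.03 lower and Gal 0.88 lower, with adjusted p = 1.00 for each. Set against control, Gal differed by 0.39 at day 1, 0.38 at day 3, 1.26 at day 7, 1.76 at day 14 and 0.11 at day 49. Atf3 differed by 1.73, 0.98, 1.22, 1.62 and -0.02 at the same days. The brightest Sema6a probe set stood 0.42 above control at day 3, 0.37 at day 7, 0.02 at day 1 and 0.03 at day 14. The second stood 0.55, 0.46, 0.29 and 0.32 above control at the same days. Its day 14 arrays read 5.64, 6.53 and 5.54 against a control mean of 5.58. The 0.32 therefore rests on day14 replicate 2, an array that stands apart, and the means of these probe sets differ in course mainly at day 1. Reln differed from control by 0.43 and 0.38 at days 3 and 7 and by -0.12 at day 1. No difference between day 1 and day 3 passed for either gene (adjusted p = 1.00).

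**Figure D5:**
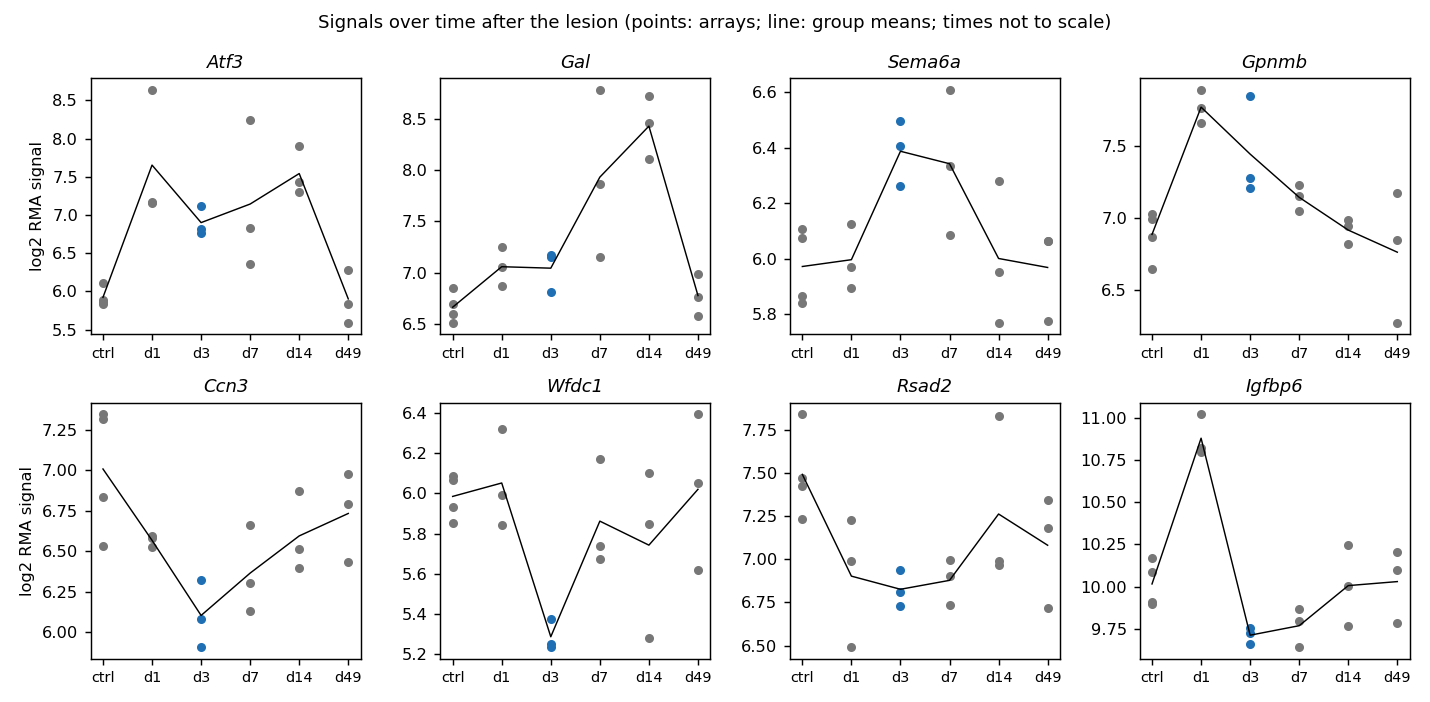
Log2 RMA signal of 8 genes on every array of the series, with lines through the group means and day 3 in blue; the times are evenly spaced and not to scale. The group means of Wfdc1 and Igfbp6 are lowest at day 3, where Wfdc1 reads 5.23 to 5.38, while Gal is higher at days 7 and 14 than at day 3.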

How the data were processed

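RNA extracted with Trizol from deep motor cortex was labelled as biotinylated cRNA from 6 ug of total RNA per array, per the labels' protocols. The authors deposited log2 values made with RMA, per the submitters' processing notes, which give no version. RMA sets all arrays to the same distribution, which hides any change common to most transcripts. Scan dates were not used here.

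The 57 array controls were left out of the 31042 tested probe sets. Gene symbols were taken from the platform's table and brought up to date by gene ID (20758 probe sets) or accession (2). A single symbol was found for 20826, more than 1 for 436, and 9780 stayed unnamed here. Each of 14217 genes was represented by its brightest probe set. limma 3.58.1 in R 4.3.3 fitted 6 group means over all 19 arrays (13 residual and 2.76 prior degrees of freedom), two-sided, with Benjamini-Hochberg adjustment over all probe sets and a threshold of 0.05. The median SE was 0.130 in this fit, 0.0792 without day14 replicate 2 and day49 replicate 2, and 0.0772 in the 7 arrays alone. The procedure was tested on simulated data.

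The comparison and the gene lists (792 of 899 entries in 32 lists matched) were chosen with earlier results of these data known. Genes were named by rule: the 12 of smallest p and the 8 of largest difference without overlap in each direction, up to 4 members of smallest p per list, a fixed set (Atf3, Jun, Gap43, Sprr1a, Gfap, Bcl11b, Crym, Fos, Vip, Gal, Npy, Agt, Igfbp6) and genes called against day 1 or day 7. Lists were described by counts and medians, with no set test. Alternatives were other sample sets, normalizations, filters, variance settings, array weights, covariates, the replicate block and each array left out.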

Additional observations from a re-analysis of the deposited data

Results flagged for a closer look

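In several genes 1 control array lay far from the other 3, by the ratio of its gap to the whole range of the group (critical value 0.829 for 4 samples). Chance gives about 1 such group in 20, and 104 genes and 32 list means were tested, of which 11 genes and 1 list were past it. The genes were not a neutral sample. Fbxw7, Gfod2, Khsrp, Nek1 and Rasal2 were named for a large difference above control without overlap, which a lone low control widens. The count of genes can therefore not be read against the rate of chance. Control replicate 3 was the lone low array in Fbxw7 (0.88), Gfod2 (0.871), Khsrp (0.895), Nek1 (0.881) and Rasal2 (0.886). Control replicate 4 was lowest in Fos (0.899) and Vtn (0.853) and highest in Agt (0.862) and Insig1 (0.847), and control replicate 1 was lowest in Ifitm3 (0.868) and Wnt5a (0.911). The mean of the unfolded protein response list was lowest in 1 control array (0.92).

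The effects of day 1 and day 3 differed, by the test of the difference itself, in 7 genes, each lower at day 3: Igfbp6 (-1.17), Ifitm3 (-1.07), Agt (-1.02), Pla1a (-0.93), Spon2 (-0.85), Crabp2 (-0.73) and Lgi4 (-0.69).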

How the results depend on the processing

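The count of 0 called probe sets at day 3 against control was 3 in the fit of the 2 groups, 2 with array weights and 0 in every other setting run. The 282 with an unadjusted p under 0.05 became 1280, 1415 without day14 replicate 2 and day49 replicate 2, 2727 with array weights, 120 for probe sets above the median, 125 for 1 probe set per gene, and 177 to 306 with 1 array left out. Against day 1 the 8 calls became 25, 63, 491 with array weights, 3 with the meningeal covariate, and 0 to 8 with 1 array left out; against day 7 every setting gave 0. Of 104 named genes 89 kept their sign under every alternative run and 3 (Atf3, Aspn and Ccn3) were called under 1. Many were named for a small p or for groups without overlap. Where groups do not overlap, leaving out 1 array cannot turn the sign, so the 89 are partly set by that choice. Signs turned with the meningeal covariate for Agt (-0.0279), Spon2 (0.0645), Sprr1a (0.175), Slc6a13 (0.155), Slc13a4 (0.241), Col1a1 (0.000398) and Col3a1 (0.00879), the last 4 of them members of the list that makes the covariate. They turned with the myelin covariate for Hspa5 (0.0078), with the replicate block for Fos (-0.0145) and Aldh1a2 (-0.0451), and with array weights for Lgi4 (0.0054), Foxc1 (-0.0233) and Aldh1a2 (-0.131). With 1 array left out, values that turned ran from -0.0401 to 0.0812 for Agt, -0.187 to 0.229 for Aldh1a2, -0.00824 to 0.0945 for Crabp2, -0.0145 to 0.174 for Fos, -0.00926 to 0.209 for Foxc1, -0.0490 to 0.0084 for Hspa5, -0.259 to 0.00636 for Pla1a, -0.0952 to 0.0167 for Spon2, -0.0739 to 0.00742 for Sprr1a and -0.0551 to 0.243 for Vip. The cause was not tested. Of 512 list medians under alternatives 85 moved by more than the spread of the day 3 arrays.

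Like-numbered control and day 3 arrays deviated together by correlations of -0.07, 0.19 and -0.11, within the range of unlike-numbered arrays (-0.30 to 0.21). These values show no pairing by replicate number, but so few arrays cannot exclude one. With the replicate block 0 probe sets were called against control, 6 against day 1 and 0 against day 7. The replicates number 3 and 4. In the main fit the median 95% interval, not adjusted, reached 0.28 to either side. For the typical probe set a smaller difference would not reach an unadjusted p under 0.05, while probe sets with narrower intervals could show a smaller one. The median SE behind that interval was 0.130, against 0.0792 without day14 replicate 2 and day49 replicate 2.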
